A study of Physcomitrium patens with 4 samples.

Results

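In the moss Physcomitrium patens, 38 of 32273 genes had at least 50 reads in each of the 2 libraries of the pubs hy2 double mutant and at most 3 reads in each of the 2 wild-type libraries. They were taken from 30696 singly mapped genes, those with under 10% multi-mapping reads in every library. These genes were selected on their reads in all 4 libraries, so their genotype difference is described below and not tested. Messenger RNA came from chloronema, the chloroplast-rich filaments of the protonema of ecotype Gransden2004, from cultures aged 10 days and then kept dark for 3 days. The groups were pubs hy2 after 1 hour of red light, pubs hy2 in the dark, wild type after 1 hour of red light and wild type in the dark, with 1 library per group. The light was 660 nm, from diodes, with a fluence rate of 5 μmol m-2 s-1, and the cultures were held at 25 °C. The dark libraries were taken at time 0, so red light and the elapsed hour cannot be told apart.

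Phytochromes are the red light receptors of land plants, and they sense light through a bilin, a linear tetrapyrrole made from heme by way of biliverdin. HY2 reduces biliverdin to phytochromobilin, and PUBS of this moss reduces it to phycourobilin. The labels call the double mutant deficient in phytochrome. In moss protonema, phytochromes are known for roles in filament growth toward light, branching and pigment synthesis. The files give genes as identifiers without names, and 0 of these identifiers matched the RefSeq table of the species. No role is therefore given to any of the 38 genes, and neither PUBS, HY2 nor markers of chloronema were checked in the libraries. Sequences of the genes were not used here.

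Reads on genes were 22975721 in pubs hy2 after red light and 15098942 in pubs hy2 in the dark, against 24560044 in wild type after red light and 17560594 in wild type in the dark. In each light condition the mutant library was thus the shallower one, and a limit of 3 reads was stricter in wild type. After scaling by TMM factors (trimmed means of the log ratios between libraries), the floor of 3 reads was 0.134 and 0.205 scaled CPM (reads relative to the library total) in pubs hy2 after red light and in the dark, and 0.120 and 0.164 CPM in wild type. The limit of 50 reads was 2.24 CPM in pubs hy2 after red light and 3.42 CPM in the dark. With 1 library per group nothing here has a replicate check, and all intervals cover the counting error of reads only. In these bulk samples, fewer cells of a type and less RNA per cell cannot be told apart.

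The 38 genes together had 5463 reads in pubs hy2 after red light and 4101 in the dark, against 28 and 13 reads in wild type after red light and in the dark. On the scaled CPM scale this was 244 and 280.4 in pubs hy2, and 1.12 and 0.709 in wild type. The name of genes detected only in the mutant was exact for a part of them. In wild type, 18 genes had 0 reads in both libraries, 17 had reads in 1 library and 3 had reads in both. The highest wild-type count was 1 read for 8 genes, 2 reads for 7 genes and 3 reads for 5 genes. By the size rule used throughout (a fold of at least 2 with a 95% counting interval that excludes 1), 15.2% of 17785 measured singly mapped genes were higher in pubs hy2 in red light and 13.3% of 17231 in the dark. Nothing is read from this for the 38 genes, whose choice fixed that direction.

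**Figure D1:**
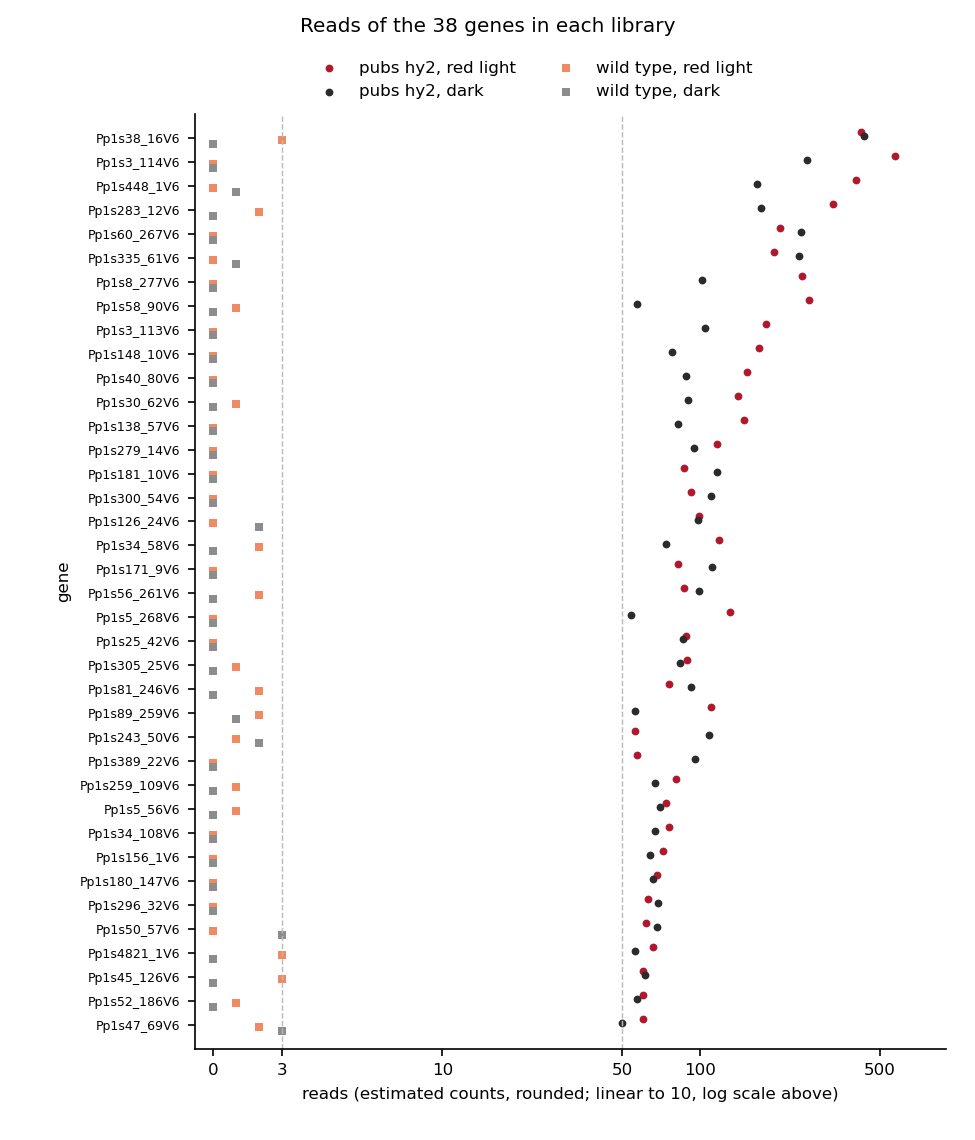
Reads of the 38 genes (rows, ordered by their sum in pubs hy2) in each of the 4 libraries, on an axis that is linear to 10 and logarithmic above. Circles are the pubs hy2 libraries and squares the wild-type libraries, and dashed lines mark the limits of 3 and 50 reads that chose the genes; red light counts reach 570 in pubs hy2, and no wild-type count passes 3.

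The same limits with the genotypes exchanged took 0 genes. No singly mapped gene had at least 50 reads in both wild-type libraries and at most 3 in both pubs hy2 libraries, and 1 gene did once multi-mapping genes were let in. With at least 20 reads asked for, 119 genes were found in pubs hy2 and 4 in wild type. With at least 5 reads the numbers were 437 and 95. The gene nearest to the exchanged rule was Pp1s114_57V6, with 1 read in each pubs hy2 library against 28 and 24 reads in wild type after red light and in the dark. When all libraries were scaled to the shallowest, the counts were 37 and 0. Of the 10051 singly mapped genes with at most 3 reads in both wild-type libraries, 84.9% also had at most 3 in both pubs hy2 libraries, and 0.378% were among the 38.

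**Figure D2:**
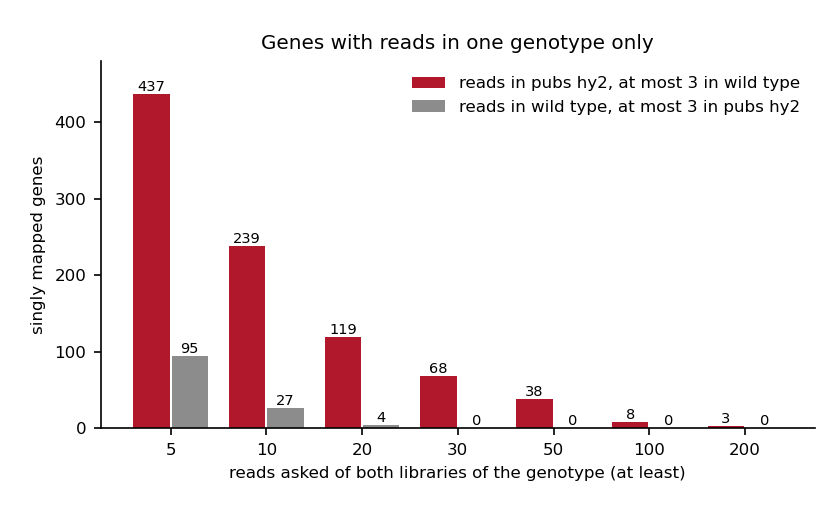
Number of singly mapped genes with at least the given reads in both libraries of one genotype and at most 3 reads in both libraries of the other. At each limit shown more genes had reads in pubs hy2 only (left bars) than in wild type only (right bars), from 437 against 95 at 5 reads to 38 against 0 at 50 reads.

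On the RPKM scale, the highest of these genes reached levels of well expressed genes. RPKM, the authors' reads scaled by gene length and library total, is the scale for comparing genes with each other. Because it divides by length, short genes reach a high RPKM with few reads. Pp1s448_1V6, with 405 and 167 reads over 2272 bp, had 6.90 RPKM in pubs hy2 after red light and 4.36 RPKM in the dark. The part that length has in the ranks below was not tested. Pp1s38_16V6 had the highest mean level, 58.7 RPKM in pubs hy2 after red light and 92.2 RPKM in the dark. Its reads, over 279 bp, were 423 and 434 in pubs hy2 after red light and in the dark, against 3 and 0 in wild type. Its level exceeded that of 89.3% (red light) and 93.7% (dark) of the 15485 singly mapped genes that had 50 reads or more in both pubs hy2 libraries. Pp1s3_114V6 followed with 65.7 RPKM in pubs hy2 after red light and 46.0 RPKM in the dark. Pp1s60_267V6 had 38.7 and 71.5 RPKM.

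For these 3 genes the genotype folds were large, as the choice required. Pp1s38_16V6 was 157-fold higher in pubs hy2 in red light (95% counting interval 53.5 to 766). In the dark it was 181-fold higher with its 0 wild-type reads set to the floor of 3 reads. Such floor values are not limits of a counting interval. Pp1s3_114V6 had 570 and 261 reads in pubs hy2 after red light and in the dark and 0 reads in both wild-type libraries. Its floor values were 212-fold and 109-fold, and the lower limits of its 95% counting intervals were 172 and 88.1. Pp1s60_267V6, with 204 and 246 reads against 0 and 0, had floor values of 75.9-fold and 103-fold. These were also the only genes of the 38 with at least 200 reads in both pubs hy2 libraries.

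Lower levels followed. The next genes by mean level were Pp1s3_113V6 (33.4 RPKM after red light and 29.6 in the dark), Pp1s300_54V6 (22.0 and 40.2) and Pp1s58_90V6 (40.9 and 13.4). Pp1s138_57V6 had 26.5 and 22.5 RPKM and Pp1s126_24V6 had 16.8 and 25.5 RPKM in pubs hy2 after red light and in the dark. Pp1s181_10V6, Pp1s180_147V6, Pp1s25_42V6 and Pp1s30_62V6 completed the 12 most abundant, with 12.5 to 14.4 RPKM after red light and 14.1 to 26.6 RPKM in the dark. Of these 12 genes, 8 had 0 reads in both wild-type libraries. The exceptions were Pp1s38_16V6, Pp1s58_90V6 and Pp1s30_62V6, with 3, 1 and 1 reads in wild type after red light, and Pp1s126_24V6, with 2 reads in wild type in the dark.

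The level of the 38 genes varied widely. Over the 38 genes, RPKM in pubs hy2 ran from 1.10 through a median of 7.85 to 65.7 after red light, and from 1.49 through 9.37 to 92.2 in the dark. The medians over all 15485 genes with at least 50 reads in both libraries were 12.9 and 12.6 RPKM, and those over the 7150 of these within the read range of the 38 were 6.21 and 6.23 RPKM. The median of the 38 genes lay between these medians in both libraries. Among the 38, 17 had under 100 reads in both pubs hy2 libraries. The order of levels in the 2 pubs hy2 libraries was similar, with a Spearman correlation of RPKM of 0.90 over the 38 genes and 0.96 over the 15485, across genes that share libraries and gene lengths.

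Several genes stood close to the limits that chose them. Just inside were Pp1s47_69V6, with 60 and 50 reads in pubs hy2 after red light and in the dark against 2 and 3 in wild type, and Pp1s4821_1V6, with 66 and 56 reads against 3 and 0. Pp1s89_259V6 had 110 and 56 reads against 2 and 1. Just outside the limit of 50 reads, Pp1s22_314V6 had 82 and 49 reads against 1 and 3, and Pp1s134_161V6 had 48 and 54 against 0 and 0. With the limit on wild type as the one missed, 10 genes had a higher wild-type count of 4 reads. The most abundant of them, Pp1s15_199V6, had 310 and 293 reads in pubs hy2 against 2 and 4 in wild type. The multi-mapping limit alone kept out 11 genes, the nearest being Pp1s1722_1V6 with up to 12.4% multi-mapping reads and 331 and 167 reads against 2 and 0. None of the 38 genes had a multi-mapping read in any library. Only 3.47% of the 15485 genes had one, and the rule limited this share, so nothing is read from it.

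The 38 genes were short. Their length had a median of 0.534 kb, from 162 bp for Pp1s300_54V6 to 2385 bp for Pp1s56_261V6. The median was 1.86 kb over the 15485 genes with at least 50 reads in both pubs hy2 libraries, and 1.68 kb over the 7150 in the same read range. Genes with at most 3 reads in both wild-type libraries were shorter still, with a median of 0.321 kb. Of the 38 genes 13 (34.2%) were under 300 bp, against 1.23% of the 15485 and 45.7% of the genes nearly silent in wild type. Put the other way, 6.81% of the 191 such short genes with at least 50 reads in both pubs hy2 libraries were among the 38, against 0.163% of the 15294 longer ones. The library protocol selected fragments of 200 to 400 bp, so the length of these 13 genes lies within or below the range of 1 fragment.

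The gene models also shared a kind of length. The length was a multiple of 3 bp for 35 of the 38 genes (92.1%), against 44.4% of the 15485 genes and 94.7% of the genes nearly silent in wild type. Models without untranslated regions have such lengths. The exceptions were Pp1s259_109V6 with 646 bp, Pp1s81_246V6 with 1316 bp and Pp1s448_1V6 with 2272 bp. All 191 genes under 300 bp with at least 50 reads in both pubs hy2 libraries also had a length that is a multiple of 3 bp. For the 13 of the 38 genes under 300 bp, this trait therefore adds nothing beyond their shortness. Whether the longer ones differ from other genes of similar length was not tested. By both length measures, which are not independent, the 38 genes lay nearer to the genes nearly silent in wild type than to the genes expressed in the mutant.

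**Figure D3:**
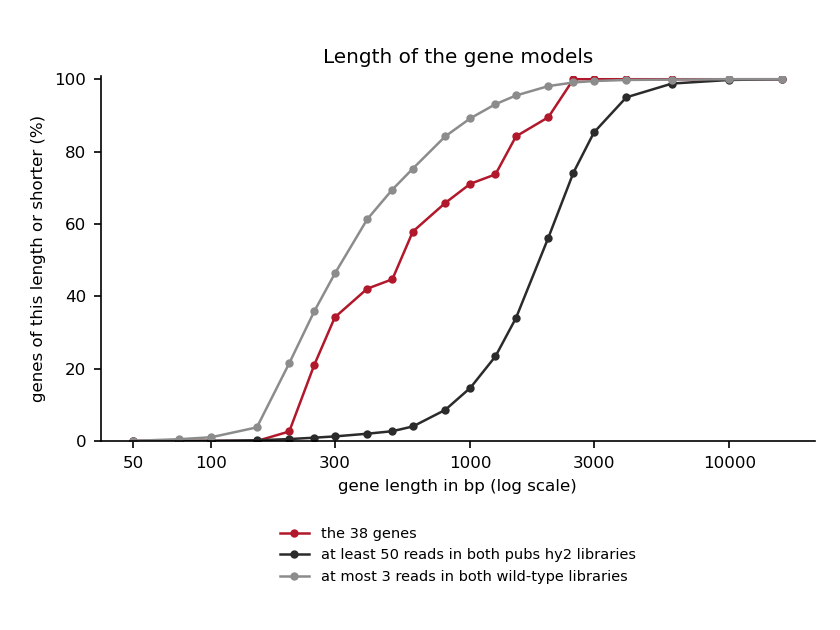
Share of genes with a given length or shorter, by length in base pairs on a log axis, for the 38 genes, the 15485 singly mapped genes that had 50 reads or more in both pubs hy2 libraries, and the 10051 with at most 3 reads in both wild-type libraries. At 300 bp the curve of the 38 genes stands at 34.2%, between 1.27% and 46.3%.

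The genes were scattered over 35 scaffolds of the assembly that the identifiers number. The second number of an identifier was taken as the order of genes on a scaffold, which could not be checked because the files give no coordinates. The next listed number on either side is called a neighbour here. Listed numbers do not always adjoin, and Pp1s45_142V6 stood 16 numbers from Pp1s45_126V6. One pair of neighbours was found among the 38. Pp1s3_113V6 and Pp1s3_114V6 had 181 and 570 reads in pubs hy2 after red light, 105 and 261 in the dark, and 0 reads in both wild-type libraries. The next listed gene on that scaffold, Pp1s3_117V6, had 527 and 218 reads in pubs hy2 after red light and in the dark, against 629 and 579 in wild type. Its fold was 0.935 in red light (interval 0.832 to 1.05) and 0.472 in the dark (0.402 to 0.552), so the difference of the pair did not extend to it.

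Genes listed next to the 38 were often higher in the mutant as well. The listed genes on either side made 70 further genes, of which 34 were measured, meaning singly mapped and with 50 reads or more summed over the pair of libraries in each light condition. Of these 34, 14 (41.2%) were higher in pubs hy2 by the size rule both in red light and in the dark, against 9.95% of 17110 measured genes, and 2 were lower in both. Where the numbers adjoined exactly, 11 of 22 were higher. The 14 genes stood next to 12 of the 38, while 11 of the 38 had no measured neighbour outside the 38. These neighbours were not used by the rule that chose the 38, but they were counted in the same libraries. The 50 reads could also come from pubs hy2 alone. A neighbour nearly silent in wild type, such as Pp1s5_57V6, was thus measured only through its pubs hy2 reads, which fixed its direction. The same filter was applied to the 17110 genes.

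Shares counted in the same way were lower for other groups of genes. Among neighbours of the other 15447 genes with at least 50 reads in both pubs hy2 libraries, 9.52% of 13209 measured genes were higher in both light conditions. Among neighbours of the other 10013 genes nearly silent in wild type it was 11.6% of 7519. Among neighbours of the other 1665 genes that were themselves higher in pubs hy2 in both light conditions it was 17.7% of 1754. These shares are descriptions, and their difference from the 41.2% was not tested.

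**Figure D4:**
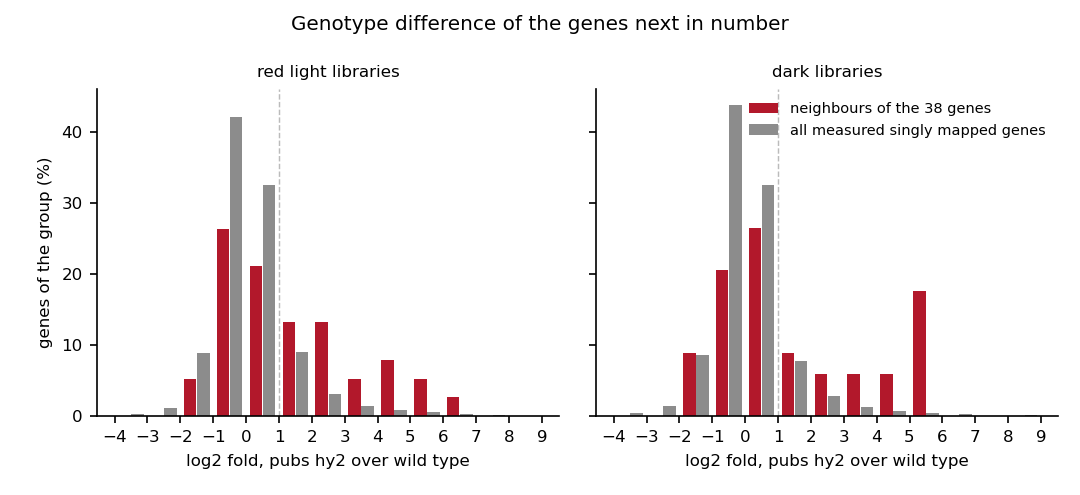
Distribution of the log2 fold of pubs hy2 over wild type in red light (left) and in the dark (right), for the measured neighbours of the 38 genes (38 in red light, 34 in the dark) and for all measured singly mapped genes (17785 and 17231). Bars are shares of each group in bins of 1 log2 unit, the dashed line marks a 2-fold difference, and a larger share of the neighbours lies right of it, with medians of 0.73 and 0.50 against -0.04 and -0.08.

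Some neighbours had many more reads than the gene of the 38 beside them. Pp1s38_15V6, next to Pp1s38_16V6, had 18908 and 11719 reads in pubs hy2 after red light and in the dark, against 407 and 365 in wild type. It was 51.9-fold higher in red light (47.0 to 57.4) and 40.2-fold higher in the dark (36.3 to 44.8). Pp1s60_266V6, next to Pp1s60_267V6, had 4973 and 4388 reads against 786 and 162, and was 7.06-fold (6.55 to 7.63) and 34.0-fold (29.0 to 40) higher. In pubs hy2, Pp1s38_16V6 had 423 and 434 reads and Pp1s60_267V6 had 204 and 246, far fewer than these neighbours. In each wild-type library the neighbours had at least 162 reads, and the members of the 38 had 3 or fewer. Whether the members had fewer wild-type reads than their share of the neighbours' reads in pubs hy2 would give was not tested. Pp1s300_55V6, beside Pp1s300_54V6, had 17752 and 10865 reads against 4139 and 2676, 4.79-fold (4.63 to 4.95) and 5.09-fold (4.88 to 5.31) higher.

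Other neighbours looked much like members that missed a limit. Pp1s279_14V6 had 117 and 95 reads in pubs hy2 after red light and in the dark and 0 in both wild-type libraries. The genes on either side of it, Pp1s279_13V6 and Pp1s279_15V6, had 111 and 145 reads and 97 and 103 reads in pubs hy2, each against 4 and 0 in wild type. These consecutive numbers thus had similar reads in the mutant and next to none in wild type. Pp1s138_58V6 had 327 and 100 reads against 4 and 3 beside Pp1s138_57V6, which had 148 and 82 against 0 and 0. Pp1s5_57V6 had 182 and 91 reads against 4 and 0 beside Pp1s5_56V6, which had 74 and 70 against 1 and 0. Pp1s171_9V6, with 82 and 111 reads against 0 and 0, had a neighbour on either side that was higher in the mutant, Pp1s171_7V6 at 10.1-fold (8.89 to 11.6) in red light and Pp1s171_10V6 at 4.45-fold (3.67 to 5.42).

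Other neighbours did not pass the size rule or lay on the other side of 1. Pp1s34_108V6 had 76 and 67 reads in pubs hy2 against 0 and 0 in wild type, while Pp1s34_107V6 and Pp1s34_109V6 were 1.53-fold and 1.22-fold in red light and 1.36-fold and 1.05-fold in the dark, none past the 2-fold limit. Pp1s259_109V6 lay between Pp1s259_104V6, which was 18.8-fold higher in red light (15.5 to 23.0), and Pp1s259_112V6, which was lower at 0.486-fold (0.470 to 0.503). The protocol in the labels describes no step that keeps the strand, so reads from genes that overlap on opposite strands cannot be told apart. Whether reads of a neighbour fall on any of the 38 genes was not tested.

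Red light was compared with dark within pubs hy2, as a description, since the rule used these reads too. It asked for 50 reads on both sides and no fold, but 50 reads was the higher scaled level in the dark (3.42 against 2.24 CPM after red light), which near the limit favours folds below 1. By the size rule 1 of the 38 genes was higher after red light (2.63%), close to the 2.25% of the 15485 genes with at least 50 reads in both libraries. Lower after red light were 4 of 38 (10.5%), against 1.10% of the 15485 genes and 1.82% of the 7150 genes in the same read range. The other 33 did not pass. The fold was below 1 for 25 of the 38 genes (65.8%), against 50.1% of the 15485. Its interval lay wholly below 1 for 18 (47.4%), against 29.2%, and wholly above 1 for 7 (18.4%), against 29.4%. The 15485 genes met the same limits but mostly lay further from them, so no light response of the 38 as a group is read from these shares.

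Pp1s58_90V6 was the gene that was higher. It had 266 reads in pubs hy2 after red light and 57 in the dark, a fold of 3.05 (2.29 to 4.14), with 1 and 0 reads in wild type. The red light library was the high one, and its level there was 40.9 RPKM against 13.4 RPKM in the dark. Next in order came Pp1s8_277V6 with 249 and 102 reads, 1.60-fold (1.26 to 2.03), and Pp1s448_1V6 with 405 and 167 reads, 1.59-fold (1.32 to 1.91). Pp1s5_268V6 had 131 and 54 reads, 1.59-fold (1.15 to 2.22), and Pp1s3_114V6 was 1.43-fold (1.23 to 1.66). These 4 lay above 1 beyond counting error but under the 2-fold limit.

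The lowest fold was that of Pp1s243_50V6, with 56 reads in pubs hy2 after red light and 108 in the dark, 0.339-fold (0.241 to 0.473). Pp1s389_22V6 had 57 and 96 reads, 0.388-fold (0.275 to 0.545). Pp1s171_9V6 had 82 and 111 reads, 0.483-fold (0.359 to 0.649), and Pp1s181_10V6 had 87 and 117 reads, 0.486-fold (0.364 to 0.647). In these 4 genes the raw counts were lower after red light although that library was the deeper one. Pp1s335_61V6, with 194 and 243 reads, was 0.522-fold (0.430 to 0.633) and stayed just short of the limit. The pair Pp1s3_113V6 and Pp1s3_114V6 had folds on the same side, 1.13 (0.882 to 1.45) and 1.43.

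**Figure D5:**
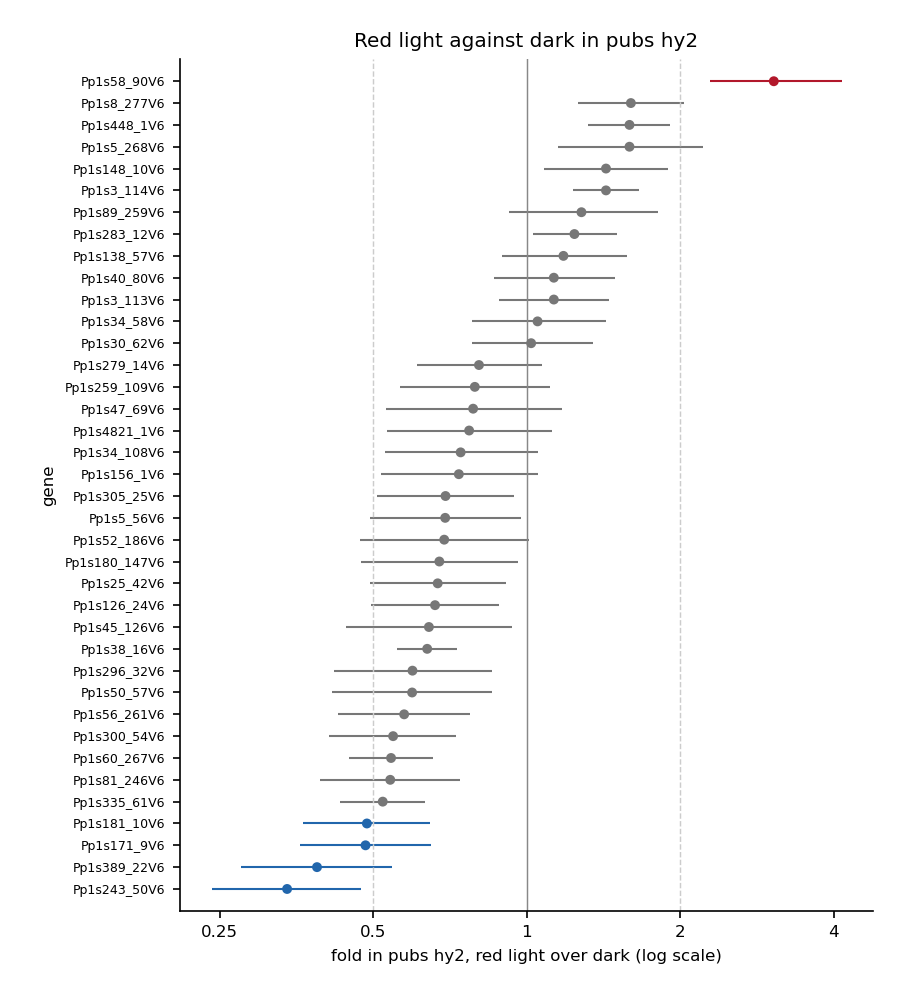
Fold of red light over dark in pubs hy2 for the 38 genes on a log axis, with exact 95% counting intervals as lines. The red point, Pp1s58_90V6 at 3.05, and the 4 blue points, from 0.339 to 0.486, pass the size rule, and dashed lines mark the 2-fold limits.

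The median log2 fold of red light over dark in pubs hy2 was -0.49 for the 38 genes, -0.00 for the 15485 genes and -0.03 for the 7150 genes in the same read range. For the 13 of the 38 genes under 300 bp it was -0.57, and for the 25 longer ones -0.35. The 191 short genes with at least 50 reads in both pubs hy2 libraries had -0.25, and the 15294 longer ones 0.00. The 38 genes thus lay lower than these genes in both length classes. The median was 0.24 for the 8 genes with at least 100 reads in both pubs hy2 libraries, so its direction depends on the read limit. The part that gene length and the limits of the rule have in it was not tested further. In wild type no fold of red light over dark can be given, since both libraries were at or under the floor.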

How the data were processed

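The authors deposited, per the file headers, an estimated count of reads per gene, an RPKM value (reads scaled by gene length and library total), for each gene the fraction of its reads with more than one mapping place, and the gene length. Of the estimated counts 95.4% to 95.6% per library were whole, and all were rounded. The sources used here name no aligner, genome build or annotation version. Nothing in the labels says whether libraries came from separate cultures.

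Libraries were scaled with TMM (edgeR 4.0.16, R 4.3.3; factors 0.973 and 0.969 for pubs hy2 after red light and in the dark, 1.02 and 1.04 for wild type). A gene was called when its fold was at least 2 and the exact 95% Clopper-Pearson interval excluded 1. The rule was also run on simulated red light and dark reads of pubs hy2. These held counting error only, as the interval assumes, so that run cannot show how the rule behaves under variation between cultures. No p-value was computed, since each group has 1 library. DESeq2 1.42.0 gave alternative size factors. Python 3.11.15, scipy 1.17.1, pandas 2.3.3, numpy 2.4.6 and matplotlib 3.10.9 did the rest.

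The 38 genes, limits and named genes (12 most abundant, 5 highest and 5 lowest red light folds, genes called, near the limits, adjoining, longest and shortest) were chosen with earlier results of these data known. The groups set beside the neighbours, the neighbours named and the 300 bp split were chosen after seeing their values.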

Additional observations from a re-analysis of the deposited data

How the results depend on the processing

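The number of genes followed the read limits. It was 18 with 0 wild-type reads allowed, 85 with 10, 119 with at least 20 reads in each pubs hy2 library and 8 with at least 100. It was 38 with a multi-mapping share below 1% or unrounded reads, 49 without that limit and 37 with reads scaled to the shallowest library. With the genotypes exchanged, 0 genes became 1 without the multi-mapping limit. Red light against dark in pubs hy2 gave 4 higher and 14 lower of the 38 at a 1.5-fold limit, and 1 and 0 at 3-fold. Other scalings, the authors' RPKM and an assumed biological coefficient of variation of 0.2 left 1 and 4. The median log2 fold of red light over dark was between -0.51 and -0.47 over scalings. In settings chosen after seeing the data it was 0.24 for the 8 genes with at least 100 reads in each pubs hy2 library (the cause was not tested), and -0.44, -0.30 and -0.31 for the other limits. Neighbours higher in pubs hy2 in both light conditions numbered 13 or 14 of 34 over scalings and with the assumed variation. No paired analysis was possible because each group has 1 library. Counts under 100 reads carry wide intervals, and depth limits wild type to at most 3 reads, not to absence.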

Other observations

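Genes seen in a single library were looked for with the same limits. Among the 30696 singly mapped genes, 0 had at least 50 reads in pubs hy2 after red light and at most 3 in each of the other libraries, and the count was also 0 for pubs hy2 in the dark, for wild type after red light and for wild type in the dark. Restriction to one genotype in both light conditions was found for 38 genes in pubs hy2 and 0 in wild type.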
